A study of Mus musculus with 8 samples.

Results

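A set of 10 genes of sebaceous and neutral lipid metabolism was followed in RNA-seq of mouse skin epidermis. The genes, chosen by symbol, were Pparg, Fasn, Scd1, Scd3, Fads2, Elovl3, Acsbg1, Dgat2, Plin2 and Mgst1, which are 10 of the 54838 genes counted in each library. All 10 passed the filter on low counts, which left 17839 genes for testing. The epidermis was detached with trypsin from Ovol1/2 iDKO mice and from control mice, and both were taken at 25 DPI and 52 DPI. The terms iDKO and DPI are the labels' own. Every group had 2 biological replicates, which gave 8 libraries. The labels give no strain, age, sex or driver of the deletion, and the libraries hold bulk RNA of all cells that came off with the sheet.

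Sebocytes, the cells of the sebaceous gland, fill with lipid droplets and burst to release sebum, a mixture of triglycerides, wax esters, sterol esters and squalene. Their differentiation depends on the nuclear receptor PPARG, and in mice loss of Scd1 leaves the glands atrophic. Keratinocytes of the epidermis use many of the same enzymes to make the fatty acids of the skin barrier, so that only some of the 10 genes are restricted to the gland.

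The library totals were between 9824307 and 50711381 counts. Ovol1 and Ovol2, the genes that the genotype names, had higher CPM (counts scaled to a common library size with TMM factors) in the iDKO library of every pair. Ovol1 was at 148 and 204 CPM in the iDKO libraries at 25 DPI, against 135 and 36.3 CPM in control. The genotype labels are therefore not checked by these genes, and iDKO below means the libraries labelled so. The Y-linked gene Ddx3y was at 0 in the 4 libraries at 52 DPI, against 39.4 to 113 CPM in the 4 at 25 DPI. Xist was between 131 and 1139 CPM at 52 DPI, against at most 0.342 CPM at 25 DPI, so sex and time changed together and cannot be told apart. Libraries with the same replicate number deviated together from their group means and were treated as pairs. All 15 sebaceous gland markers passed the filter. Of 12 adipocyte markers 8 did not, and Adipoq, Lep, Cfd, Plin1 and Pck1 were at or near 0 in every library. Others were detected, with group means of 4.96 to 23.9 CPM for Lpl and 2.47 to 4.51 CPM for Lipe. The 12 summed to between 12.7 and 46.1 CPM in a library.

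No member was called between iDKO and control at either time or across both, at an adjusted p under 0.05, by edgeR, DESeq2 or limma-voom with all libraries. Scd1 and Fasn were higher in the iDKO library of all 4 pairs, and Acsbg1 was lower in all 4. Pparg, Elovl3 and Scd3 had their lowest values at 52 DPI, and Pparg and Elovl3 were called lower there by DESeq2 but not by edgeR. In the values that follow, the libraries of a group are given in the order replicate 1, replicate 2. A lower CPM in such bulk samples can mean fewer cells of a type or less RNA per cell, and these cannot be told apart.

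Scaled to exon length (RPKM), the 10 genes fell into a high and a low range. Acsbg1 averaged 64.6 RPKM over the 8 libraries, Mgst1 64.4 and Scd1 59.5 RPKM. Fasn averaged 23.9 RPKM, Plin2 23.8 RPKM and Dgat2 20.5 RPKM. These 6 were among the upper 16.9% of the 14109 tested protein-coding genes. The other 4 had means of 4.27 RPKM for Elovl3, 3.74 RPKM for Scd3, 2.40 RPKM for Pparg and 0.871 RPKM for Fads2. Neighbours in this order overlapped in their ranges over libraries. The steadiest gene was Acsbg1, whose highest library was 1.88 times its lowest. The same ratio was 3.09 for Scd1, 3.38 for Dgat2 and 8.09 for Fasn, and it reached 31.6 for Mgst1, 106 for Scd3 and 179 for Elovl3.

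**Figure D1:**
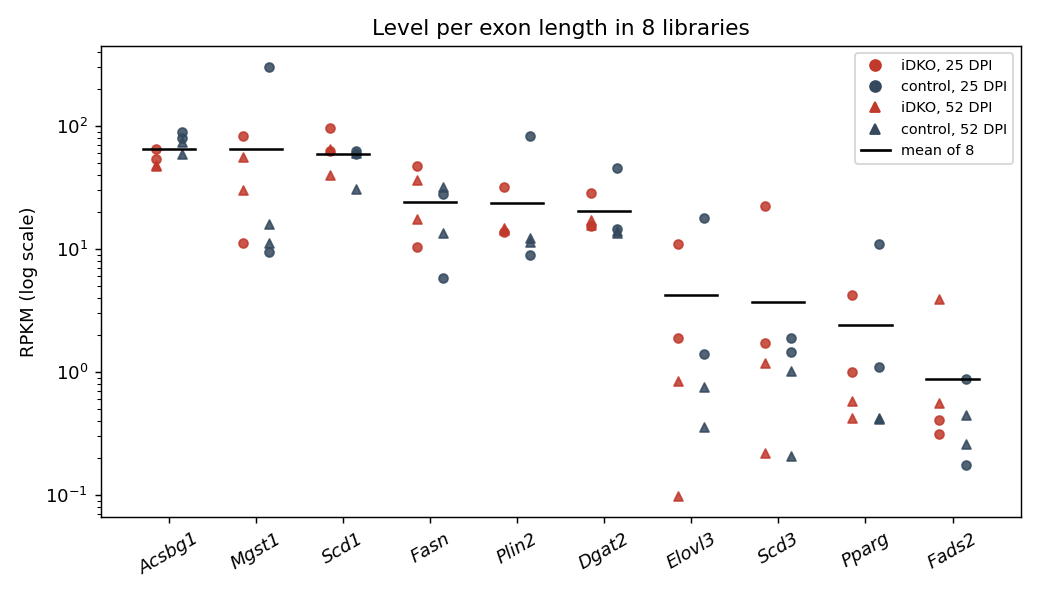
RPKM of the 10 genes (log scale), in order of the mean of the 8 libraries, which is the bar; circles are 25 DPI, triangles 52 DPI, red iDKO on the left and dark blue control on the right of each gene. Acsbg1 and Scd1 sit in narrow bands, and Elovl3, Scd3 and Mgst1 spread widest.

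Fatty acid synthase (Fasn; ENSMUSG00000025153, chr11:120805846-120824547, minus strand, GRCm38) makes palmitate from malonyl-CoA. Fasn had 114 and 519 CPM in the iDKO libraries at 25 DPI, against 64.1 and 307 CPM in control. At 52 DPI it had 193 and 396 CPM in iDKO, against 148 and 349 CPM in control. Each iDKO library stood above the control library of its pair, yet the groups overlapped at both times, because the replicate 2 libraries were above the replicate 1 libraries in all 4 groups. Within pairs the ratio of iDKO to control was 1.78 and 1.69 at 25 DPI and 1.30 and 1.13 at 52 DPI.

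Across both times the log2 fold change of Fasn was 0.51 ± 0.66 (edgeR quasi-likelihood test with Benjamini-Hochberg adjustment, adjusted p = 1.00). For edgeR the value after ± is an approximate SE, the absolute log2 fold change divided by the square root of the test's F statistic. For DESeq2 it is the SE of the fit. With the pair as a block the log2 fold change of Fasn was 0.54 ± 0.17, with an unadjusted edgeR p of 0.017 and an adjusted p of 0.996. DESeq2 with that block gave 0.52 ± 0.19 and an adjusted p of 0.487. At 25 DPI alone DESeq2 with the block gave 0.78 ± 0.25 and an adjusted p of 0.128, where it called 0.577% of all tested genes. With any 1 pair left out, the DESeq2 estimate across both times was between 0.44 and 0.64. Without a block, leaving out the iDKO library of replicate 2 at 25 DPI gave -0.10.

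Stearoyl-CoA desaturase (Scd1; ENSMUSG00000037071, chr19:44394455-44407879, minus strand) puts a double bond into palmitate and stearate and is the main desaturase of mouse sebaceous glands. Scd1 had 306 and 468 CPM in the iDKO libraries at 25 DPI, against 287 and 306 CPM in control. In the 52 DPI libraries it had 195 and 320 CPM in iDKO, against 152 and 295 CPM in control. At 25 DPI both iDKO libraries were above both control libraries, and at 52 DPI the groups overlapped. Of all tested genes 5.39% were separated this way at 25 DPI. The ratio within pairs was 1.07 and 1.53 at 25 DPI and 1.28 and 1.09 at 52 DPI, with a log2 fold change across both times of 0.30 ± 0.36 (edgeR, adjusted p = 1.00) and 0.30 ± 0.16 with the block (adjusted p = 0.996).

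The bubblegum-type acyl-CoA synthetase Acsbg1 (ENSMUSG00000032281, chr9:54604877-54661870, minus strand) activates long-chain fatty acids and differed in the other direction. Acsbg1 had 195 and 235 CPM in the iDKO libraries at 25 DPI, against 286 and 323 CPM in control. The 52 DPI values were 172 and 172 CPM in iDKO, against 212 and 265 CPM in control. The iDKO and control libraries did not overlap at either time, and Acsbg1 was the only member of which this held. Of all tested genes, 5.15% had both iDKO libraries below both control libraries at 25 DPI and 10.2% at 52 DPI. The ratio within pairs was 0.682 and 0.728 at 25 DPI and 0.812 and 0.649 at 52 DPI.

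The log2 fold change of Acsbg1 across both times was -0.49 ± 0.28 without a block (edgeR, adjusted p = 1.00) and -0.48 ± 0.14 with it (edgeR, unadjusted p = 0.0123, adjusted p = 0.996). DESeq2 with the block gave -0.50 ± 0.15 and an adjusted p of 0.129. In edgeR the estimate was -0.47 ± 0.47 at 52 DPI and -0.50 ± 0.47 at 25 DPI, with a difference of 0.03 ± 0.67 (adjusted p = 1.00). With any 1 pair left out the DESeq2 estimate was between -0.55 and -0.45.

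Of all 17839 tested genes, 6.73% were higher in iDKO in all 4 pairs, and 6.7% were lower in all 4. The 2 members that were higher and the 1 that was lower stand against these shares. Without a block DESeq2 called 0.0448% of all tested genes across both times and edgeR called 0, and with the block edgeR called 0.00561%, none of them a member. In the edgeR fit with the block, 1 member was higher and 1 lower at an unadjusted p under 0.05, where 2.9% and 1.13% of all tested genes were.

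The windows of 250 bases before the RefSeq starts of Fasn and Acsbg1, the members with opposite directions in all 4 pairs, are shown because both hold the same short motif. They are printed 5′ to 3′ along the gene's strand from RefSeq (GRCm38.p6), for Fasn chr11:120824548-120824797 and for Acsbg1 chr9:54661886-54662135, both on the minus strand. Capitals mark CCAAT, the core of the CCAAT box, which reads ATTGG where it lies on the other strand.
Fasn: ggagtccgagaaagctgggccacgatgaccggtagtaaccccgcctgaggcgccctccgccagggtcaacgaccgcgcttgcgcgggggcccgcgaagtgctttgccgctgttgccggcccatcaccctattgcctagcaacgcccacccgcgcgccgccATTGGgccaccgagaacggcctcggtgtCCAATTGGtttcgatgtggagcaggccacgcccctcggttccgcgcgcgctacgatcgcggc
Acsbg1: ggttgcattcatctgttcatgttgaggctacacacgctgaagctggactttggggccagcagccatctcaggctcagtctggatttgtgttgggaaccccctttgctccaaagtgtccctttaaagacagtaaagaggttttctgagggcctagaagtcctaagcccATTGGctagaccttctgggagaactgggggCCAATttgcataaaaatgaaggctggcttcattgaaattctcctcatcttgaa
Counted back from the start, Fasn held the motif at -90 to -86 and -59 to -55 on the other strand and at -62 to -58 on its own strand, the last 2 of which overlap. Acsbg1 held it at -83 to -79 on the other strand and at -53 to -49 on its own. Of 32851 mouse promoter windows of that length, 33.8% held CCAAT on either strand. The other motifs searched on both strands, the AGGTCA element of nuclear receptors and the E-box CACGTG, were absent from both windows, and were in 14.0% and 6.02% of all windows. Windows were at hand for 7 of the 10 members, and AGGTCA was in windows of Pparg and Plin2. CCAAT was in windows of Pparg and Plin2 as well, so it was not particular to Fasn and Acsbg1.

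**Figure D2:**
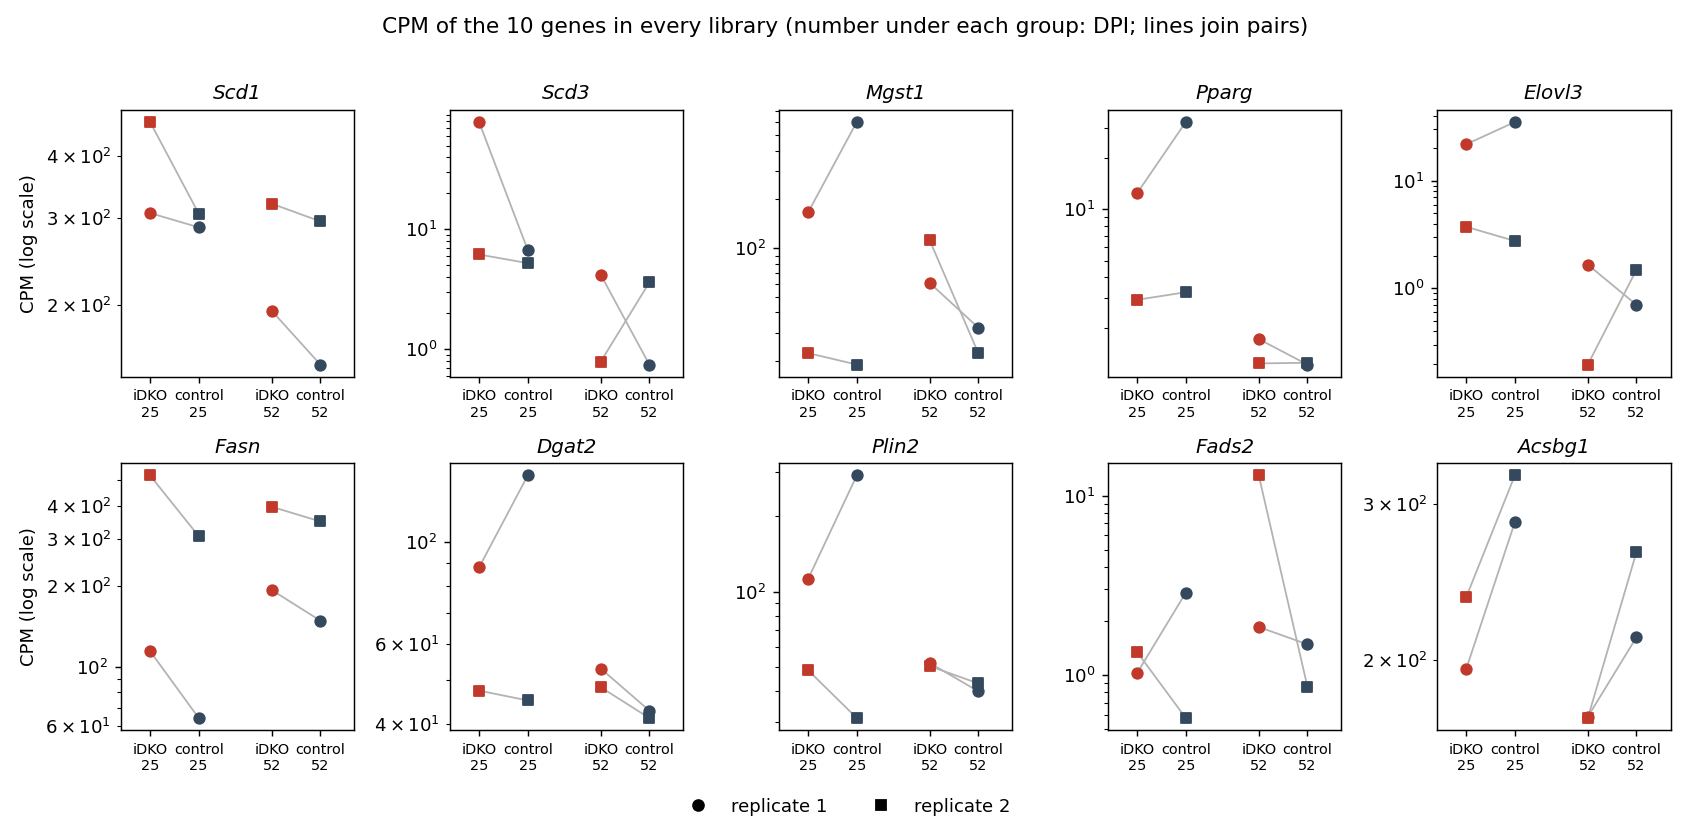
CPM (log scale) of each gene in all 8 libraries; red iDKO, dark blue control, circles replicate 1, squares replicate 2, lines join the libraries of a pair, and the number under each group is DPI. Lines fall from iDKO to control in all 4 pairs for Scd1 and Fasn and climb in all 4 for Acsbg1; the replicate 1 libraries at 25 DPI are the high points of Scd3, Mgst1, Pparg, Elovl3, Dgat2 and Plin2.

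Pparg (ENSMUSG00000000440, chr6:115360951-115490399, plus strand) encodes the nuclear receptor that drives sebocyte and adipocyte differentiation. Pparg had 12.4 and 2.94 CPM in the iDKO libraries at 25 DPI, against 32.6 and 3.26 CPM in control. At 52 DPI it had 1.73 and 1.24 CPM in iDKO, against 1.22 and 1.25 CPM in control. The highest library was the control at 25 DPI of replicate 1, and the groups overlapped at both times. The log2 fold change was -1.23 ± 1.08 at 25 DPI and 0.27 ± 1.10 at 52 DPI (edgeR, adjusted p = 1.00 for both).

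Elovl3 (ENSMUSG00000038754, chr19:46131897-46135694, plus strand) is an elongase of saturated and monounsaturated very long chain fatty acids, expressed in mouse skin by sebaceous glands and hair follicles. Elovl3 had 21.8 and 3.74 CPM in the iDKO libraries at 25 DPI, against 35.1 and 2.76 CPM in control. At the later time the values were 1.66 and 0.196 CPM in iDKO, the second of these from 3 counts, against 0.704 and 1.49 CPM in control. Its order between iDKO and control turned from pair to pair, with iDKO higher in 2 and lower in 2. The log2 fold change across both times was -0.38 ± 0.92 (edgeR, adjusted p = 1.00).

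Mgst1 (ENSMUSG00000008540, chr6:138140316-138156755, plus strand), a microsomal glutathione transferase abundant in sebaceous glands, spanned the largest range in CPM. Mgst1 had 166 and 22.4 CPM in the iDKO libraries at 25 DPI, against 602 and 19.0 CPM in control. The values at 52 DPI were 60.9 and 112 CPM in iDKO, against 32.2 and 22.3 CPM in control. Both iDKO libraries lay above both control libraries at 52 DPI, and at 25 DPI the control library of replicate 1 stood far above the other 3. The log2 fold change was 1.66 ± 1.42 at 52 DPI and -1.72 ± 1.42 at 25 DPI, with a difference between the times of 3.38 ± 2.01 (edgeR, adjusted p = 1.00 for each). With the block the difference was 2.43 ± 0.78 in edgeR (adjusted p = 0.793) and 2.43 ± 0.73 in DESeq2 (adjusted p = 0.118), where DESeq2 called 0.219% of all tested genes. Without the control library of replicate 1 at 25 DPI the difference was -0.58 in edgeR.

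Krt79, a keratin of the sebaceous duct and the infundibulum, was highest in 2 of the 3 libraries with the highest Mgst1. Krt79 was at 2007 and 1919 CPM in iDKO at 25 DPI, against 5765 and 1404 CPM in control libraries, and at 2373 and 5786 CPM in iDKO at 52 DPI, against 1684 and 1447 CPM in control. Krt79 made up most of the summed level of the 15 sebaceous gland markers, which was 2333 to 2526 CPM in iDKO and 1830 to 6254 CPM in control at 25 DPI, and 2738 to 6342 CPM in iDKO and 1941 to 2074 CPM in control at 52 DPI. Gene by gene, 7 of these markers were higher and 8 lower in iDKO in the replicate 1 pair of 25 DPI. In the replicate 2 pair of 25 DPI 8 were higher and 7 lower. At 52 DPI 12 were higher and 3 lower in the replicate 1 pair, with a median ratio of 0.66 (log2). In the replicate 2 pair of 52 DPI 8 were higher and 7 lower. Of these markers Dgat2l6 was at 0 in 2 libraries, and no other was. The 8 hair follicle and outer root sheath markers summed to 5791 CPM in the iDKO library of replicate 2 at 52 DPI and to 5871 CPM in the control library of replicate 1 at 25 DPI, the libraries with the highest Krt79, against 1190 to 2775 CPM in the other 6. The part of such cells in the values of Mgst1 was not tested.

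Dgat2 (ENSMUSG00000030747, chr7:99153658-99182719, minus strand) adds the last acyl chain to make triglycerides. Dgat2 had 87.9 and 47.4 CPM in the iDKO libraries at 25 DPI, against 139 and 45.1 CPM in control. At 52 DPI it had 52.9 and 48.2 CPM in iDKO, against 42.9 and 41.3 CPM in control. Plin2 (ENSMUSG00000028494, chr4:86648386-86670060, minus strand), which coats lipid droplets, had the same order of libraries within each pair. Plin2 had 112 and 48.5 CPM in the iDKO libraries at 25 DPI, against 291 and 31.2 CPM in control. The 52 DPI values were 51.9 and 50.4 CPM in iDKO, against 39.9 and 42.9 CPM in control. Both genes were lower in iDKO in the replicate 1 pair at 25 DPI and higher in the other 3 pairs. At 52 DPI the groups of either gene did not overlap, and the log2 fold change was 0.27 ± 0.62 for Dgat2 and 0.30 ± 0.92 for Plin2 (edgeR, adjusted p = 1.00 for both).

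Fads2 (ENSMUSG00000024665, chr19:10062765-10101746, minus strand) carries out the first desaturation of polyunsaturated fatty acids and was near the limit of detection. Fads2 had 1.03 and 1.34 CPM in the iDKO libraries at 25 DPI, against 2.88 and 0.576 CPM in control. Its values at 52 DPI were 1.85 and 12.9 CPM in iDKO, against 1.48 and 0.862 CPM in control. The iDKO library of replicate 2 at 52 DPI, with 198 counts, stood far above the other 7, which held between 9 and 59. The log2 fold change at 52 DPI was 2.64 ± 1.16 (edgeR, adjusted p = 1.00) and ranged from 0.66 to 3.44 when 1 library was left out. The same library was the highest of the 8 in Scd2 (317 CPM), in the adipocyte and endothelial lipid carrier Fabp4 (5.76 CPM) and in the fibroblast gene Dcn (84.4 CPM). Within the full lists the markers went both ways. Of the 8 fibroblast markers 6 were higher and 2 lower in that library than in its control, with a median ratio of 1.02 (log2). Their sum was 159 CPM in that library, against 162 CPM in its control, with Sparc at 42.4 CPM against 145 CPM. The 12 adipocyte markers summed to 34.3 CPM in that library, against 16.8 CPM in its control. Of these 12, 6 (Lep, Retn, Cfd, Plin1, Cidec and Pck1) were at 0 in that library, and 4 (Retn, Cfd, Cidec and Pck1) in its control. Of the 4 adipocyte markers that were tested, 2 were higher and 2 lower in iDKO in this pair. The part of other cells in Fads2 was not tested.

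At 52 DPI 4 members, Mgst1, Dgat2, Plin2 and Fads2, had both iDKO libraries above both control libraries, where 11.9% of all tested genes did. Markers of other cell types also differed within these pairs. All 8 T cell markers were higher in iDKO in both 52 DPI pairs, summing to 308 and 589 CPM in iDKO, against 238 and 151 CPM in control. Of the 8 Langerhans cell markers 7 and 8 were higher, with sums of 1318 and 1146 CPM in iDKO, against 757 and 584 CPM in control. Of the 8 basal keratinocyte markers 7 and 8 were lower, with sums of 47279 and 26304 CPM in iDKO, against 51648 and 49109 CPM in control. No marker of these 3 lists was at 0 in any library, and their part in the 4 members' values was not tested. At 25 DPI Scd1 was the only member with this separation. None of these 5 members was called by edgeR, which called 0 genes at either time. At an unadjusted p under 0.05 edgeR had 143 genes at 52 DPI (0.802%) and 75 genes at 25 DPI (0.42%), with no member among them. DESeq2 called 1 gene at 52 DPI and 2 at 25 DPI (0.0112%), limma-voom called 0 at both, and none was a member.

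Scd3 (ENSMUSG00000025202, chr19:44203269-44244016, plus strand), a desaturase that mice express mainly in sebaceous and Harderian glands, differed from Pparg, Elovl3 and Mgst1 in its highest library. Scd3 had 78.9 and 6.17 CPM in the iDKO libraries at 25 DPI, against 6.73 and 5.22 CPM in control. At 52 DPI it had 4.18 and 0.785 CPM in iDKO, against 0.741 and 3.60 CPM in control. Its highest library was the iDKO library of replicate 1 at 25 DPI, while Pparg, Elovl3 and Mgst1 were highest in the control library of the same pair. The ratio of iDKO to control was 11.7 and 1.18 at 25 DPI and 5.63 and 0.218 at 52 DPI. Across both times the log2 fold change was 1.57 ± 1.04 (edgeR, adjusted p = 1.00) and 1.13 ± 1.01 in DESeq2 with the block (adjusted p = 0.999). The replicate 2 pair of 52 DPI was the only one in which Scd3 was lower in iDKO. Without that pair DESeq2 with the block gave 2.10 ± 0.53. Without the 25 DPI pairs of replicates 1 and 2 it gave 0.22 and 1.63, and without the 52 DPI pair of replicate 1 it gave 0.49. Leaving out pairs was added after seeing the data and leaves 1 library a group at that time. Of the stretches of 50 bases in the longest Scd3 transcript 6.66% also occur in other genes, Scd1 and Scd2 among them, against 4.66% for Scd1.

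Awat2 and Far2, enzymes of wax ester synthesis, had the order of Scd3 between iDKO and control, Far2 in all 4 pairs and Awat2 in 3. The acyltransferase Awat2 had 40.9 and 2.10 CPM in the iDKO libraries at 25 DPI, against 11.2 and 2.18 CPM in control libraries, and 4.87 and 1.37 CPM in iDKO at 52 DPI, against 1.22 and 1.96 CPM in control. The fatty acyl-CoA reductase Far2, which supplies the alcohols of wax esters, had 102 and 16.8 CPM in iDKO at 25 DPI, against 43.6 and 12.5 CPM in control libraries, and 12.4 and 4.97 CPM in iDKO at 52 DPI, against 3.45 and 8.31 CPM in control. Both were higher in iDKO in the replicate 1 pairs of both times and lower in the replicate 2 pair of 52 DPI, as Scd3 was. By the distance of log2 CPM profiles over the 8 libraries, Far2 (0.72), Serpina3j (0.74) and Awat2 (0.89) were the genes nearest to Scd3 among 12345 searched. This is the root mean square difference after centring each gene, and its points share the libraries and their depth.

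All 7 listed genes of wax and sterol ester synthesis were tested. Across both times the fitted log2 fold change was above 0 for all 7, with a median of 0.83 in edgeR and 0.72 with the block, where the median of all tested genes was -0.02 and 0.01. In this comparison no gene of this list was called, 0 had an unadjusted p under 0.05 and 0 were higher in all 4 pairs. In the replicate 1 pair of 25 DPI 5 of the 7 were higher in iDKO, and in the replicate 2 pair of 52 DPI 3 were higher and 4 lower. The median ratio over the list was 1.21 (log2) in the replicate 1 pair and 0.01 in the replicate 2 pair at 25 DPI, and 1.17 and -0.39 in those of 52 DPI. Soat1, which esterifies cholesterol, had the order opposite to that of Scd3 in the replicate 1 pair of 25 DPI and the replicate 2 pair of 52 DPI, with 23.2 and 15.2 CPM in iDKO at 25 DPI, against 31.1 and 10.9 CPM in control libraries, and 18.5 and 26.9 CPM in iDKO at 52 DPI, against 8.23 and 10.7 CPM in control. Soat2, its relative, was at 0 in the iDKO library of replicate 1 at 25 DPI, against 1.05 CPM in its control.

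**Figure D3:**
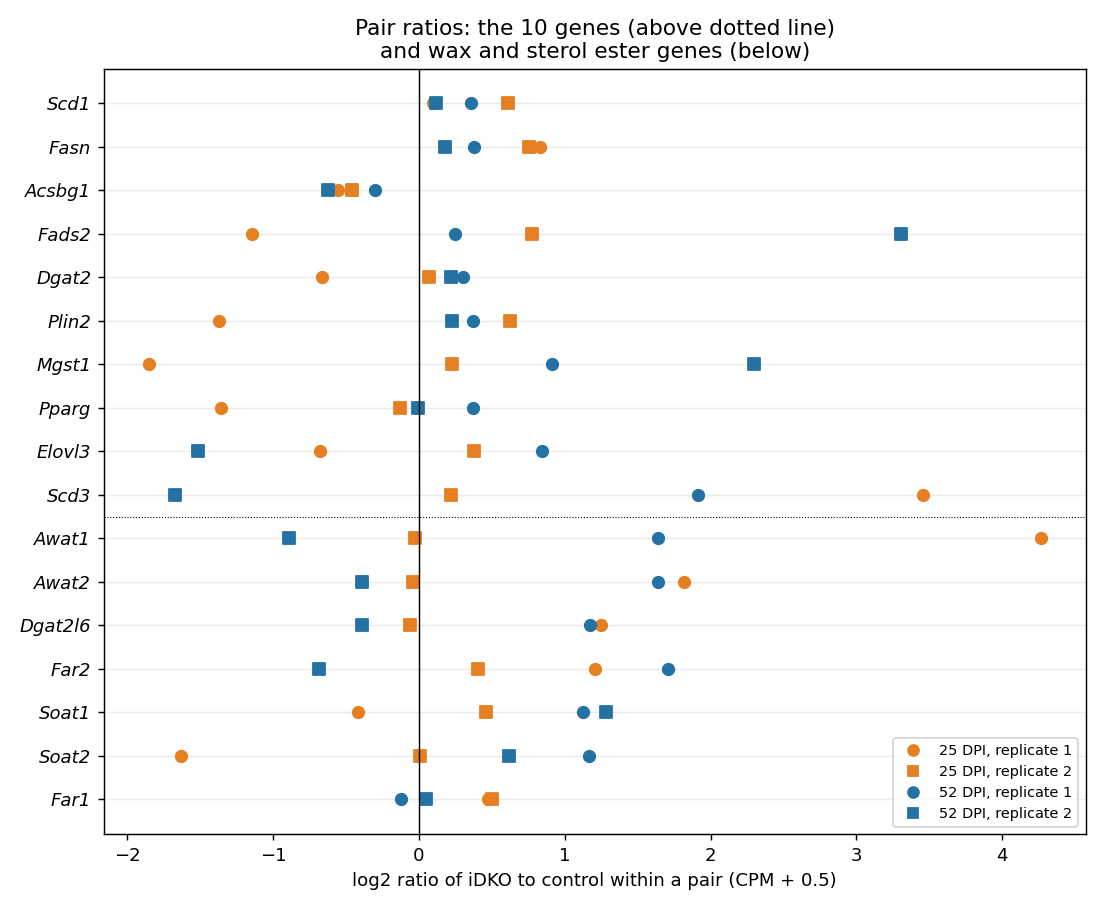
Ratio of iDKO to control within each of the 4 pairs (log2 of CPM + 0.5) for the 10 genes, above the dotted line, and the 7 genes of wax and sterol ester synthesis, below it; orange 25 DPI, blue 52 DPI, circles replicate 1, squares replicate 2. All 4 points of Scd1 and Fasn lie right of 0 and those of Acsbg1 left of it; in the replicate 1 pair of 25 DPI Mgst1, Plin2 and Pparg lie left of 0 while Scd3, Awat1, Awat2, Dgat2l6 and Far2 lie right of it.

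The replicate 1 pair at 25 DPI set the direction of several members. In that pair 7 of the 10 were lower in iDKO, with a median ratio of -0.67 (log2), whereas 8, 9 and 6 of the 10 were higher in iDKO in the other 3 pairs, with medians of 0.30, 0.37 and 0.15. The median ratio of all tested genes was between -0.03 and 0.00 in the 4 pairs. Cidea, a droplet fusion protein of sebocytes, was with Pparg and Elovl3 rather than with Scd3 in that pair, at 49.0 CPM in iDKO and 101 CPM in control. The control library of that pair also had the highest summed levels of melanocyte markers (407 CPM, against 60.1 to 85.1 CPM in the other 7) and of T cell markers (710 CPM), and its basal keratinocyte markers summed to 36014 CPM, lower than in 6 of the other 7. The part of these cells in the members' values was not tested.

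For iDKO against control across both times, the fatty acid genes beside the members held the 2 calls of the pathway lists, both by DESeq2 with the block. Of 28 listed genes of fatty acid synthesis, elongation and desaturation, the members among them left out, 25 were tested. With the pair as a block, edgeR gave 6 of them a higher and 0 a lower level in iDKO across both times at an unadjusted p under 0.05, and called 0. Of all tested genes 2.9% were higher and 1.13% lower at that threshold in the same fit. DESeq2 with the block called Fads3 and Elovl5 higher, in a fit that called 0.409% of all genes. Over the 25 tested genes of the list the median log2 fold change was 0.08 with the block, against 0.01 over all tested genes.

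Fads3, a desaturase of sphingoid bases, had 3.19 and 6.13 CPM in iDKO at 25 DPI, against 1.31 and 2.98 CPM in control. The values at 52 DPI were 13.4 and 33.4 CPM in iDKO, against 7.27 and 5.72 CPM in control. Fads3 was higher in iDKO in all 4 pairs, as 6.73% of all tested genes were, and its groups did not overlap at either time. Of all tested genes 5.39% were separated this way at 25 DPI and 11.9% at 52 DPI. The log2 fold change of Fads3 across both times was 1.42 in DESeq2 with the block (adjusted p = 0.0253) and 1.43 ± 0.33 in edgeR with the block (adjusted p = 0.931). Elovl5, an elongase of polyunsaturated fatty acids, had 141 and 37.5 CPM in iDKO at 25 DPI, against 42.9 and 23.2 CPM in control libraries, and 50.9 and 89.5 CPM in iDKO at 52 DPI, against 38.8 and 31.0 CPM in control. Its log2 fold change was 1.07 in DESeq2 with the block (adjusted p = 0.0498) and 1.08 ± 0.25 in edgeR with the block (adjusted p = 0.931). Fads1, which acts after Fads2 and Elovl5 in the same route, was also higher in all 4 pairs, with 1.00 ± 0.26 in edgeR with the block (adjusted p = 0.996) and a DESeq2 adjusted p of 0.126. Fads2 itself was higher in 3 of the 4 pairs, with 0.96 ± 0.82 in edgeR with the block (adjusted p = 0.996).

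Of the lipogenic transcription factors beside Pparg, 12 of 13 listed genes were tested. Across both times 0 were called by edgeR or by DESeq2 with the block. Cebpa, which acts with Pparg in sebocyte and adipocyte differentiation, had 73.1 and 116 CPM in iDKO at 25 DPI, against 29.5 and 83.9 CPM in control libraries, and 74.0 and 158 CPM in iDKO at 52 DPI, against 67.2 and 105 CPM in control. Its log2 fold change across both times was 0.62 ± 0.21 in edgeR with the block (adjusted p = 0.996). Ppara, the receptor of fatty acid oxidation genes, was lower in iDKO in all 4 pairs, at -0.40 ± 0.15 (adjusted p = 0.996). Mlxipl, the glucose-sensing activator of lipogenic genes, was higher in all 4 pairs at 0.81 ± 0.36, from values under 3.5 CPM (adjusted p = 0.996).

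Calls of the next 4 lists are those of iDKO against control across both times, by edgeR or by DESeq2 with the block. Of 15 listed genes of triglyceride synthesis beside Dgat2, 14 were tested and 0 were called. With the block 2, Lpin2 and Agpat1, were higher in iDKO at an unadjusted p under 0.05, where 2.9% of all tested genes were. Their log2 fold changes were 0.35 ± 0.15 and 0.43 ± 0.18 in edgeR with the block (adjusted p = 0.996 for both). Of 19 listed genes of lipid droplets and lipolysis beside Plin2, 15 were tested and 0 were called. The droplet protein Plin5, the lipase Pnpla3 and Fitm2, which acts in droplet formation, were lower in iDKO in all 4 pairs. This held for 6.7% of all tested genes. Their log2 fold changes in edgeR with the block were -1.63 ± 0.72, -0.45 ± 0.24 and -0.24 ± 0.14 (adjusted p = 0.996 for each). Plin5 was near the limit of detection, with means at 25 DPI of 0.187 CPM in iDKO and 0.650 CPM in control. At 52 DPI these were 0.0327 and 0.0577 CPM, and the iDKO library of replicate 1 held 0 counts. Of 17 listed genes of fatty acid uptake and activation beside Acsbg1, 12 were tested and 0 were called, with Fabp5 at 0.86 ± 0.45 and Cd36 at -0.90 ± 0.55 (adjusted p = 0.996 for both). Of 15 listed genes of fatty acid oxidation, 14 were tested and 0 were called, with Hadhb at -0.34 ± 0.15 (adjusted p = 0.996). Over the 7 lists 99 of 114 genes were tested. At an unadjusted p under 0.05 in edgeR with the block, 9 were higher and 1 lower, where 2.9% and 1.13% of all tested genes were.

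**Figure D4:**
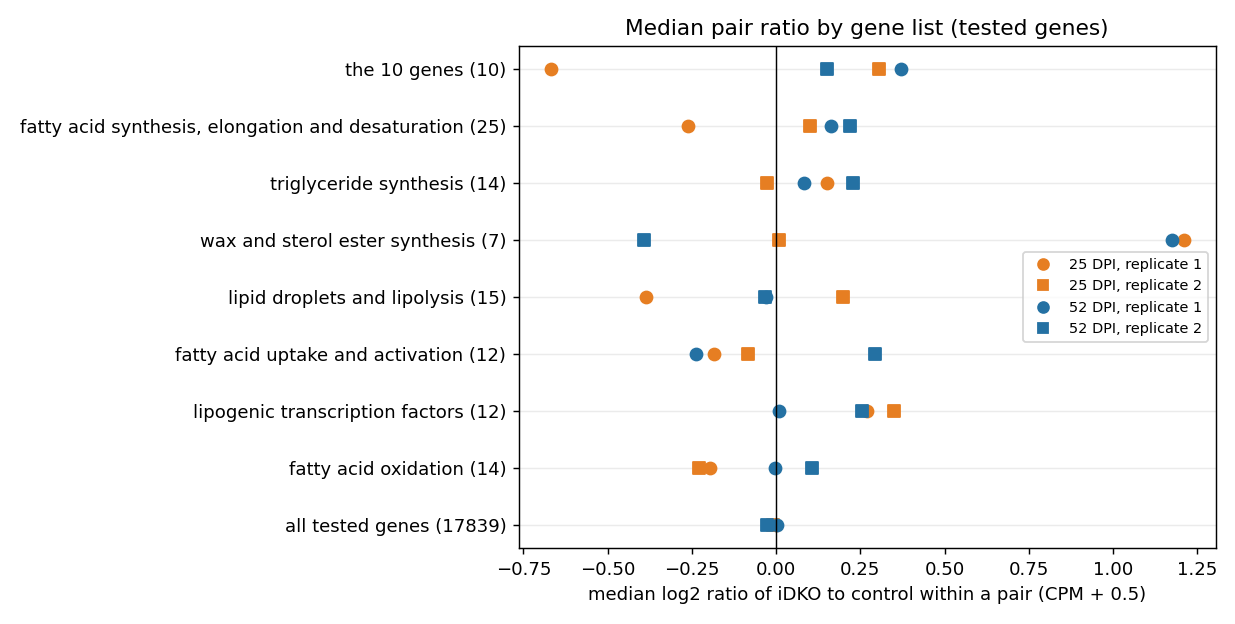
Median ratio of iDKO to control (log2 of CPM + 0.5) over the tested genes of each list, by pair; orange 25 DPI, blue 52 DPI, circles replicate 1, squares replicate 2, with the number of tested genes in brackets. The 10 genes are at -0.67 in the replicate 1 pair of 25 DPI and right of 0 in the other 3, the wax and sterol ester genes are near 1.2 in both replicate 1 pairs, and the medians of all tested genes lie within 0.03 of 0.

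The comparison of 52 with 25 DPI took both genotypes together. Scd3, Pparg and Elovl3 were lower in all 4 libraries at 52 DPI than in any of the 4 at 25 DPI, which held for 1.64% of all tested genes. No member had the opposite separation, which held for 2.65% of all tested genes. The values at 52 DPI were 0.785 to 4.18 CPM for Scd3, against 5.22 to 78.9 CPM at 25 DPI. For Pparg they were 1.22 to 1.73 CPM at 52 DPI, against 2.94 to 32.6 CPM at 25 DPI. For Elovl3 they were 0.196 to 1.66 CPM at 52 DPI, against 2.76 to 35.1 CPM at 25 DPI.

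DESeq2 called Elovl3 (log2 fold change -3.96 ± 0.90, adjusted p = 0.00747) and Pparg (-3.13 ± 0.76, adjusted p = 0.0175) lower at 52 DPI, where it called 0.213% of all tested genes lower. With the replicate number as a block DESeq2 gave -3.40 ± 0.67 for Elovl3 (adjusted p = 2.235e-04) and -2.62 ± 0.58 for Pparg (adjusted p = 0.00184), in a fit that called 0.869% lower. Scd3 was at -2.82 ± 0.90 in DESeq2 (adjusted p = 0.196), and at -2.59 ± 0.83 with the block (adjusted p = 0.0796). In edgeR the same 3 genes had log2 fold changes of -3.92 ± 1.02, -3.09 ± 0.83 and -2.80 ± 1.07, for Elovl3, Pparg and Scd3 in that order, and an adjusted p of 0.862 each. edgeR called 4 genes and none of the members, at 0.0224% of all tested genes, and limma-voom called 3 genes and none of the members. Without the filter on low counts edgeR called all 3 lower, at 0.453% of the genes then tested, with an adjusted p of 2.276e-07 for Elovl3, 3.749e-04 for Pparg and 5.494e-04 for Scd3.

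The size of the difference varied with the replicate number. Among the replicate 1 libraries Pparg was 7.20-fold lower at 52 DPI than at 25 DPI in iDKO and 26.6-fold lower in control. Among the replicate 2 libraries it was 2.37-fold lower in iDKO and 2.60-fold lower in control. Scd3 was 18.9-fold lower in iDKO and 9.08-fold lower in control among the replicate 1 libraries, and 7.86-fold and 1.45-fold lower among the replicate 2 libraries. Elovl3 was 13.1-fold lower in iDKO and 49.8-fold lower in control among the replicate 1 libraries, and 19.0-fold and 1.85-fold lower among the replicate 2 libraries, so that in iDKO its ratio was not larger in replicate 1. In fits of 1 replicate number alone each group has 1 library, so the p measures only how far the time difference departs between the genotypes, over 4 libraries, and not the spread between replicates. In these fits edgeR gave Elovl3 -4.50 ± 0.51 for replicate 1 (adjusted p = 1.467e-08) and -2.26 ± 0.99 for replicate 2 (adjusted p = 0.403), and Pparg -3.67 ± 0.51 for replicate 1 (adjusted p = 1.296e-06) and -1.30 ± 0.46 for replicate 2 (adjusted p = 0.349).

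Other members also differed between the replicate numbers. The replicate 1 libraries were unstranded by their counts and the replicate 2 libraries stranded, although the labels name a single kit, so replicate number and library type cannot be told apart. In the replicate 1 libraries alone edgeR called Scd3, Mgst1, Pparg, Elovl3, Dgat2 and Plin2 lower and Fasn higher at 52 DPI, in a fit that called 11.2% of all tested genes lower and 13.3% higher. In the replicate 2 libraries alone it called none of the members and 0.00561% of all genes. Mgst1 was at -2.73 ± 0.48 in the replicate 1 libraries (adjusted p = 1.086e-04) and at 1.29 ± 0.57 in the replicate 2 libraries (adjusted p = 0.409). Fasn was at 1.10 ± 0.38 (adjusted p = 0.0306) in the replicate 1 libraries and at -0.10 ± 0.23 in the replicate 2 libraries (adjusted p = 0.855). Without the control library of replicate 1 at 25 DPI, the edgeR estimate over all other libraries was -1.95 for Pparg and -2.83 for Elovl3. For Scd3 the estimate was -1.37 without the iDKO library of replicate 1 at 25 DPI, against -2.80 with all libraries.

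Of the 15 sebaceous gland markers DESeq2 called 3 lower at 52 DPI, Cidea (-4.08 ± 0.87, adjusted p = 0.00332), Mc5r (-3.26 ± 0.87, adjusted p = 0.0454) and Far2 (-2.54 ± 0.68, adjusted p = 0.0490), and 0 higher. In the same fit it called 0.213% of all tested genes lower. The median over the list was -1.58 against -0.15 for all tested genes. Sex changed together with time in these libraries and cannot be told apart from it. Far2 is also on the wax ester list, and Mc5r, the melanocortin receptor of sebocytes, was under 8 CPM in every library. The other 12 were not called. Among them Krt79 was at -0.10 ± 0.63 (adjusted p = 0.984). Prdm1 averaged 12.1 ± 5.99 CPM in iDKO and 7.67 ± 0.46 CPM in control at 52 DPI, against 5.04 ± 3.75 CPM in iDKO and 3.68 ± 1.92 CPM in control at 25 DPI (SD, n = 2 each). Lrig1 averaged 312 ± 92.1 CPM in iDKO and 337 ± 52.1 CPM in control at 52 DPI, against 213 ± 89.0 CPM in iDKO and 209 ± 143 CPM in control at 25 DPI (SD, n = 2 each).

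Profiles over the 8 libraries placed the members near different genes. The nearest gene to Elovl3 was Ces1d (0.47), and the nearest to Pparg was Avpr1a (0.38). Those nearest to Fasn were Slco4a1 (0.15) and Slc20a1 (0.16), and to Acsbg1 Espn (0.12) and Riok2 (0.13). The nearest to Scd1 was Larp1b (0.14), to Mgst1 Chchd10 (0.24), to Plin2 B230118H07Rik (0.21), to Dgat2 Pop4 (0.06) and to Fads2 Cnn3 (0.36), in log2 units of root mean square difference. Among the members themselves the closest pair was Dgat2 and Plin2 (0.43), followed by Scd1 and Acsbg1 (0.48), whereas the nearest member to Scd3, which was Elovl3, was at 1.26.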

How the data were processed

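The files hold read counts per gene as deposited by the authors, raw and with 1 table for every library, whose columns follow STAR's gene count output (1 column blind to strand and 2 by strand). Per the labels, Trizol was used to isolate RNA, and a SMART-seq v4 ultra low input kit from Clontech to prepare libraries. The submitters' processing notes name STAR 2.5.2a, Trimmomatic 0.35, FastQC 0.11.9, DESeq2 1.24.0 and the builds GRCm38 and mm10. Settings and the annotation release were not given in the sources here. The column blind to strand was used. On the second strand lay 95.4% to 95.7% of stranded counts in replicate 2 and 49.8% to 49.97% in replicate 1, so the replicates differed in library type although the labels name 1 kit. Symbols and exon lengths came from GENCODE M21 (GRCm38), which matched 54809 of 54838 identifiers. Reads shared between near-identical genes may have been dropped or split, which touches Scd1, Scd3, Plin2 and Fads2.

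Genes passing filterByExpr on the 4 groups were fitted with edgeR 4.0.16 (R 4.3.3), TMM scaling and the quasi-likelihood test. The model had 1 mean per group (4 residual degrees of freedom), or genotype and time (5) for the comparison across both times and for 52 against 25 DPI. P values were adjusted by Benjamini-Hochberg over all 17839 genes and called under 0.05. With 1 mean per group and no block they measure the spread between the 2 biological replicates of each group. In the model of genotype and time the residual also holds any difference of the genotype effect between the times. The fits of 1 replicate number alone have 1 library a group and do not measure the spread between replicates. Libraries with the same replicate number deviated together from their group means (r of 0.395 to 0.793 over the 6 pairs of groups), so the number was taken as pairing them. The block was the number within time for genotype comparisons and the number for the time comparison. DESeq2 1.42.0, limma-voom 3.58.1, RLE scaling, no filter, the second-strand column for replicate 2 and leaving out each library were alternatives. Leaving out pairs and fitting 1 replicate number alone were added after seeing the data. The procedure was tested on simulated data. Ratios within pairs are of CPM, with 0.5 added on the log2 scale.

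The members and gene lists were chosen with earlier results of these data known. Named are all members, up to 3 genes of each pathway list with the smallest p across both times under the block, up to 3 nearest genes by profile (mean log2 CPM of at least 1), checks of labels and markers whose value touches a member. Scd2 was named after its values were seen.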

Additional observations from a re-analysis of the deposited data

How the results depend on the processing

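Counts of called genes depended on the tool and the block. For iDKO against control edgeR called 0 genes in each comparison. DESeq2 called 2 at 25 DPI, 1 at 52 DPI and 8 across both times, and with the replicate block 103, 35 and 73, and 39 for the difference between the times. edgeR with the replicate block called 1 gene across both times. Without a filter edgeR called 8, 25, 19 and 16 genes at 25 DPI, at 52 DPI, for the difference and across both times. With 1 pair left out, DESeq2 with the replicate block called 274 and 15 genes without the 25 DPI pairs of replicates 1 and 2, and 30 and 49 without those of 52 DPI. For 52 against 25 DPI edgeR called 4 genes, DESeq2 72, DESeq2 with the replicate block 264, edgeR without a filter 184 and with the second-strand column 1, and 0 to 2 when 1 library was left out. On the replicate 1 libraries alone edgeR called 4375 and DESeq2 3934, on the replicate 2 libraries alone 1 and 453. The replicate block changed no call of a member. Without a filter edgeR called Scd3 (-2.78), Pparg (-3.08) and Elovl3 (-3.90) lower at 52 DPI. The causes were not tested.

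Directions of members that were not called turned under some settings. At 25 DPI Fads2 was 0.25 in limma-voom. For the difference between the times Elovl3 was -0.24 in limma-voom, and -0.15 in edgeR and -0.36 in DESeq2 with the replicate block. Across both times Mgst1 was 0.39 in limma-voom, and 0.43 in edgeR and 0.43 in DESeq2 with the replicate block. With 1 pair left out of the DESeq2 block fit, Mgst1 was 1.15 and 0.52 without the 25 DPI pairs of replicates 1 and 2 and 0.22 without the 52 DPI pair of replicate 1. Without the 25 DPI pair of replicate 1, Pparg was 0.11, Dgat2 0.20 and Plin2 0.42, and without the 52 DPI pair of replicate 2 Elovl3 was 0.25. For 52 against 25 DPI in the replicate 2 libraries alone, edgeR and DESeq2 gave Mgst1 1.29 and 1.28, Fasn -0.10 and -0.10 and Plin2 0.26 and 0.26, and edgeR on replicate 1 alone gave Fads2 -0.013.

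Leaving out 1 library at a time in the fit without a block, estimates at 25 DPI ranged from -1.02 to 0.53 for Dgat2, -2.23 to 2.13 for Elovl3, -1.23 to 1.02 for Fads2, -0.68 to 2.34 for Fasn, -3.68 to 2.24 for Mgst1, -1.83 to 1.31 for Plin2 and -2.49 to 1.17 for Pparg. At 52 DPI they ranged from -2.43 to 0.63 for Elovl3, -0.35 to 1.00 for Fasn, -0.20 to 0.78 for Scd1 and -1.44 to 1.76 for Scd3. The difference between the times ranged from -0.16 to 0.20 for Acsbg1, -0.27 to 1.28 for Dgat2, -2.31 to 2.05 for Elovl3, -2.10 to 0.95 for Fasn, -0.58 to 5.34 for Mgst1, -1.01 to 2.14 for Plin2, -0.90 to 2.76 for Pparg, -0.59 to 0.37 for Scd1 and -4.27 to 0.10 for Scd3. Across both times it was -0.27 to 0.37 for Dgat2, -1.10 to 0.71 for Elovl3, -0.0057 to 1.97 for Fads2, -0.10 to 0.99 for Fasn, -0.65 to 1.89 for Mgst1, -0.61 to 0.69 for Plin2 and -0.78 to 0.63 for Pparg. For 52 against 25 DPI it was -0.19 to 0.77 for Fasn and -2.67 to 0.16 for Mgst1. Where this left 1 library in a group, that library was assumed to vary like the others. Scd1 and Acsbg1, with the same order in all 4 pairs, kept their sign across both times in every alternative run. Scd3 also kept its sign across both times when 1 library was left out, at 0.17 to 2.40. Depth limits Elovl3, Scd3, Pparg and Fads2, whose lowest libraries held few counts.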
